A study of Mus musculus with 4 samples.

Results

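Cultured osteoblasts from the skull were compared with embryonic stem cells across all genes that could be named on an Affymetrix whole-transcript array. The comparison took every gene symbol of the deposited table, 19938 genes in all, and used 2 of the 4 arrays of the series. Both cultures were of C57BL/6 mouse origin and both were labelled as controls, with no transgene, deletion or added factor named for either. The osteoblasts were cells that trypsin and collagenase released from the calvariae of newborn mice in the last digestions of 50 and 70 min. These fractions were pooled, grown in DMEM with 10% fetal calf serum and passaged with 0.05% trypsin-EDTA. For the embryonic stem cells the labels give the strain and the cell type, and how they were grown, with or without feeder cells, is not given in the sources used here. The other arrays, of femur and tibia marrow stromal cells called mesenchymal stem cells (MSC), one of them treated with basic fibroblast growth factor (bFGF, 1 ng/ml), serve here as further cultures beside which levels can be read.

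Each gene has 1 level per array, a log2 intensity after RMA, and a difference is the osteoblast level minus the embryonic stem cell level, so that a difference of 1 is 2-fold. With 1 array per group there was no replicate, no error between cultures and no test. A gene was counted only where its higher level lay above the floor, the median of the probe sets of that array with 1 symbol (6.46 in both arrays). Of 10927 genes above the floor, 1342 (12.3%) were 2-fold or more higher in osteoblasts and 965 (8.83%) were 2-fold or more higher in embryonic stem cells. These shares are the background for the counts below. Some counts are given out of all measured members of a list. Members under the floor could not be counted there, so that the share reads low beside the background. The median difference was 0.03 over the genes above the floor and 0.07 over all genes. As a technical yardstick, the median gap between the differences of 2 probe sets of the same gene was 0.24 over 777 such genes. The central 95% of differences of 1190 genes of smell and pheromone receptors, which should be silent, ran from -0.67 to 0.85. Only 10 of these genes were above the floor, so that this range describes background levels. A bulk array cannot tell fewer cells of a type from less RNA per cell.

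**Figure D1:**
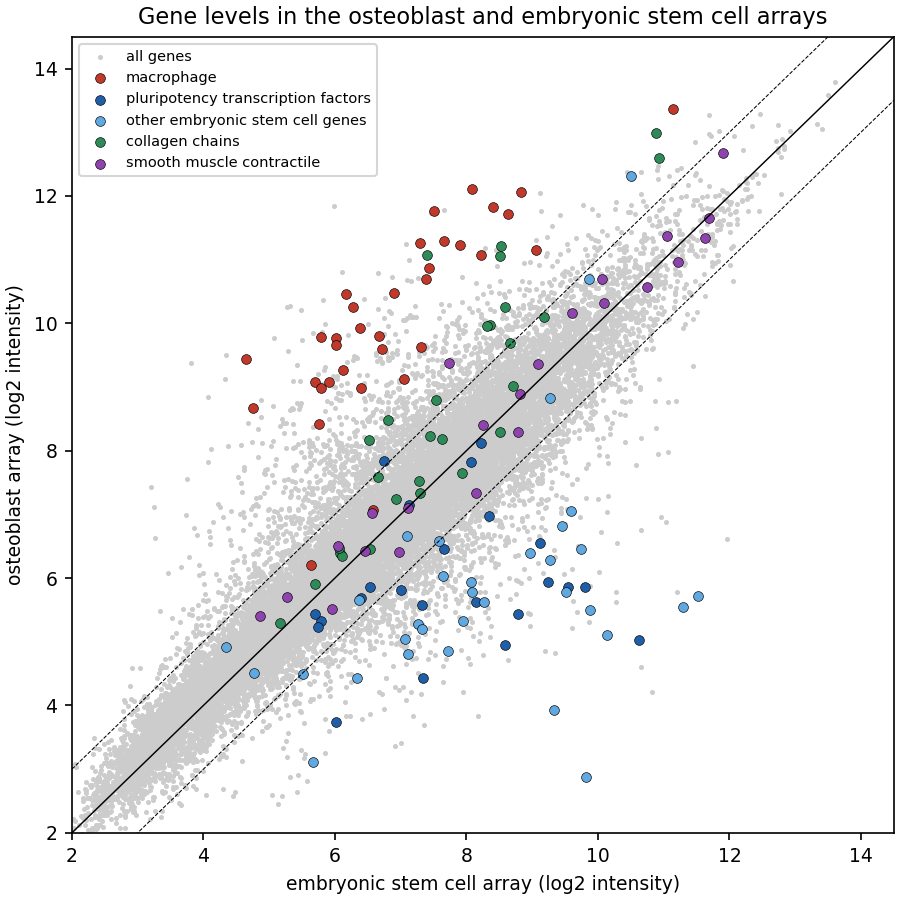
Log2 intensity of 19938 genes in the osteoblast array (vertical) against the embryonic stem cell array (horizontal), 1 grey point per gene, with the members of 5 gene lists in colour. The solid line marks equal levels and the dashed lines 2-fold. All 34 macrophage genes lie above the line of equal levels, most pluripotency genes lie below it, and the smooth muscle genes lie along it.

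Embryonic stem cells keep the pluripotent state of the early embryo through a small network of transcription factors led by Pou5f1 (OCT4), Sox2 and Nanog. In the mouse a naive state, like the inner cell mass, is distinguished from a primed state, like the epiblast that is about to form the germ layers. Osteoblasts are mesenchymal cells that secrete type I collagen and mineralise it, and those of the skull vault come partly from the cranial neural crest. Macrophages live in bone and adhere to plastic, so that primary bone cultures can carry them along.

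The 20 genes with the largest differences on either side give the outline. On the embryonic stem cell side the differences ran from -4.21 for Fgf5, an epiblast growth factor, to -6.94 for Bex1. They held Pou5f1, the co-receptor Tdgf1 and the NODAL inhibitor Lefty2, Cyp26a1, a cytochrome P450 that breaks down retinoic acid, the glucose transporter Slc2a3, the carbonic anhydrases Car2 and Car4, the thyrotropin-releasing hormone gene Trh, the de novo methyltransferase Dnmt3b and the epithelial genes Cldn6, Krt18 and Epcam. None of the 20 reached the floor of either MSC array, and 19 of the 20 were under the floor in osteoblasts. On the osteoblast side they ran from 4.16 for C1qb, a chain of complement C1q, to 5.86 for Fcrls, a scavenger receptor of macrophages. Here matrix genes, such as the small leucine-rich proteins Aspn (5.55) and Fmod (4.97) and the aggrecanase Adamts5 (4.95), stood among genes of macrophages, such as Ms4a6b, Clec4e, Ly86, Tlr7, Cx3cr1, Mpeg1 and C1qa. For 17 of these 20 the embryonic stem cell level was under the floor. On either side, background limits how low such a value can read, and with it the size of the difference.

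Promoters of a few genes are shown because they carry, in letters, the motifs under which the largest groups are usually described. Each line gives the 250 bases before the start of the gene, 5′ to 3′ on the strand of the gene, from RefSeq (GRCm38.p6), with the motif in capitals on either strand. The sequence GAGGAA is the core read by PU.1 (Spi1), the leading transcription factor of macrophages. Ptprc, the leukocyte phosphatase CD45 (chr1:138175306-138175555, minus strand), and Laptm5, a lysosomal protein of blood cells (chr4:130913066-130913315, plus strand), were higher in osteoblasts by 3.75 and 3.42.
Ptprc: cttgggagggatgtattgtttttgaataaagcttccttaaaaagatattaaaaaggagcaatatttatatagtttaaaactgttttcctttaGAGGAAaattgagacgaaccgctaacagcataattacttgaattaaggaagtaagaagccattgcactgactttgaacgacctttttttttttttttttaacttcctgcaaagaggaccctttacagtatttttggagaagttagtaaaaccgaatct
Laptm5: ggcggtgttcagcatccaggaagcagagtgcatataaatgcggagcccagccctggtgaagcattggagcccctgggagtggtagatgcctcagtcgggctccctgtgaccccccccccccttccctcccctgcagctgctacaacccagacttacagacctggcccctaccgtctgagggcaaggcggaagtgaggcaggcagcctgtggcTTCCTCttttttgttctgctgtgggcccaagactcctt
Of 32 promoters found for macrophage genes, 17 (53.1%) held GAGGAA on either strand within 250 bases before and 50 bases after the start, beside 28.3% of all 32851 promoters of that length.

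The interferon-stimulated response element is read by STAT and IRF proteins, and its core was searched as GAAA, any pair of bases and GAAA again, on both strands. Ifit3 (chr19:34583279-34583528, plus strand) and Ifit1 (chr19:34640639-34640888, plus strand), neighbours that code for antiviral RNA-binding proteins, were higher in osteoblasts by 2.46 and 2.43.
Ifit3: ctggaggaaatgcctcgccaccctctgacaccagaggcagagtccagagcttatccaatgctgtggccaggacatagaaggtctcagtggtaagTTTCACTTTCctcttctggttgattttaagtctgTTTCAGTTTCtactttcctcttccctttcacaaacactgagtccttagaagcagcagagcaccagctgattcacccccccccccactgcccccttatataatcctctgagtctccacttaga
Ifit1: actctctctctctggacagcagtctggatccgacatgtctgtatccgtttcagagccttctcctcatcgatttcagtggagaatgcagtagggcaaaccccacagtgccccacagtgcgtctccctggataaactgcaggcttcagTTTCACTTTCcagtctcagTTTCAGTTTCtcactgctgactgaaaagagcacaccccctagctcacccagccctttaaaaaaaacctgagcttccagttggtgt
Each of them held 2 matches, read here on the opposite strand as TTTC around a pair of bases. The core stood in 13 of 28 promoters (46.4%) of the interferon list and in 3.44% of all promoters.

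The CCAAT box, read by NF-Y, and the cell cycle homology region (CHR), searched as TTTGAA, are the usual pair in promoters of mitotic genes. Cdc20, the activator of the anaphase-promoting complex (chr4:118437344-118437593, minus strand), and Kif11, the motor that separates spindle poles (chr19:37376132-37376381, plus strand), were higher in embryonic stem cells, with differences of -1.61 and -1.41.
Cdc20: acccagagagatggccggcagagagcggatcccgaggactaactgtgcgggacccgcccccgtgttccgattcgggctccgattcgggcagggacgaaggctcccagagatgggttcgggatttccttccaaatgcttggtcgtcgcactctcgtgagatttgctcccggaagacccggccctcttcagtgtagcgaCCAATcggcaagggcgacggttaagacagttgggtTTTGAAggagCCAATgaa
Kif11: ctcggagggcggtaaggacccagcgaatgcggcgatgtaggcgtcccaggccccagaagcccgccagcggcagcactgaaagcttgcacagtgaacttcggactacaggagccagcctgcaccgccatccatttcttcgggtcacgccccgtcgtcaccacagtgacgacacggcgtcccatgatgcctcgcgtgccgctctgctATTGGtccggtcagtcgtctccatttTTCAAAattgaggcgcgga
Both motifs together stood in 18 of 27 promoters (66.7%) of the mitosis list and in 6.95% of all. A match is a run of letters, not a measured binding site.

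The pluripotency network separated the cultures. Of 23 measured genes of the list of pluripotency transcription factors, 18 were above the floor, 13 were 2-fold or more higher in embryonic stem cells and 1 was higher in osteoblasts, with a median difference of -1.37 beside 0.07 for all genes. Pou5f1 had a level of 10.63 in embryonic stem cells, 5.03 in osteoblasts, 5.06 in MSC without and 4.50 in MSC with bFGF. Sox2 had levels of 8.79 and 5.43 in embryonic stem cells and osteoblasts, and Nanog 9.24 and 5.95. In osteoblasts all 3 factors lay under the floor. Sall4 (-3.96), Mycn (-3.69), Utf1 (-3.64), Nr0b1 (-2.90) and Klf5 (-2.56) were further members on that side. Among members within 2-fold were Tcea3 (0.02) and Rex1bd (-0.24), the latter not known as a pluripotency factor.

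The other genes known from embryonic stem cells followed. Of 33 measured, 27 were above the floor, 22 were 2-fold or more higher in embryonic stem cells and 1, the lipid carrier Apoe (1.81), was higher in osteoblasts, with a median of -2.31. Tdgf1 stood at 11.29 in embryonic stem cells and 5.54 in osteoblasts, the RNA-binding protein Dppa5a at 10.14 and 5.10, and Lin28a, which blocks let-7 maturation, at 9.75 and 6.45. Trim71 (-2.98), a target of let-7, the demethylase Tet1 (-2.86), Lin28b (-2.31), the transposon-derived L1td1 (-2.31) and Dppa4 (-2.13) lay on the same side.

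Within the pluripotent programme the genes of the naive state were uneven. A group of 15 naive genes was picked from these lists after their values were seen, so that the split below is a description of these genes only. In the embryonic stem cell array 8 of them were above the floor and 7 were not. Zfp42 (REX1) was at 6.02, Esrrb at 6.40, Prdm14 at 5.74, Nr5a2 at 5.79, Fgf4 at 6.37, Tcl1 at 4.77 and Dppa3 at 4.34, all under the floor of 6.46 in that array. Dppa5a (10.14), Klf5 (9.12), Klf2 (8.23), Tbx3 (7.66), Nr0b1 (7.34), Tfcp2l1 (7.01), Klf4 (6.74) and Gbx2 (6.53) were above it. Klf4 was 1.10 higher in osteoblasts, and Klf2 differed by -0.11. Of the 7 under the floor, Zfp42 was still past 2-fold, with a difference of -2.28. Its level was 3.74 in osteoblasts and 3.47 and 3.83 in MSC without and with bFGF. The rest of the 7 were within 2-fold. A low value on 1 probe set does not show that a transcript was absent.

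Some genes of the primed epiblast and of the primitive streak were measured at high levels in the same culture, and others lay near or under the floor. Of 12 genes of the primed list, 10 were above the floor and 6 were 2-fold or more higher in embryonic stem cells, 0 in osteoblasts. Fgf5 was at 9.68 against 5.47, and Otx2, a homeobox factor of the epiblast and forebrain, at 9.35 against 4.83. The NODAL inhibitor Cer1 (-2.34), the WNT effector Lef1 (-2.16), Zic2 (-1.57) and Sox11 (-1.53) stood on the same side, and Pou3f1, a further primed factor, differed by -0.05. Of 15 genes of early mesoderm, 11 were above the floor and 7 were higher in embryonic stem cells. Mixl1 was at 9.86 against 5.31, Eomes at 9.19 against 4.85, Lhx1 at 8.96 against 5.43, Fgf8 at 10.15 against 7.80 and the organiser gene Gsc at 8.92 against 6.74. Mesp1, Mesp2, Tbx6 and Evx1 of that list were under the floor in both arrays. Msgn1 (7.17 against 6.75) and Cdx1 (7.45 against 6.90) were above it in both and within 2-fold. T (brachyury) was not analysed here.

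**Figure D2:**
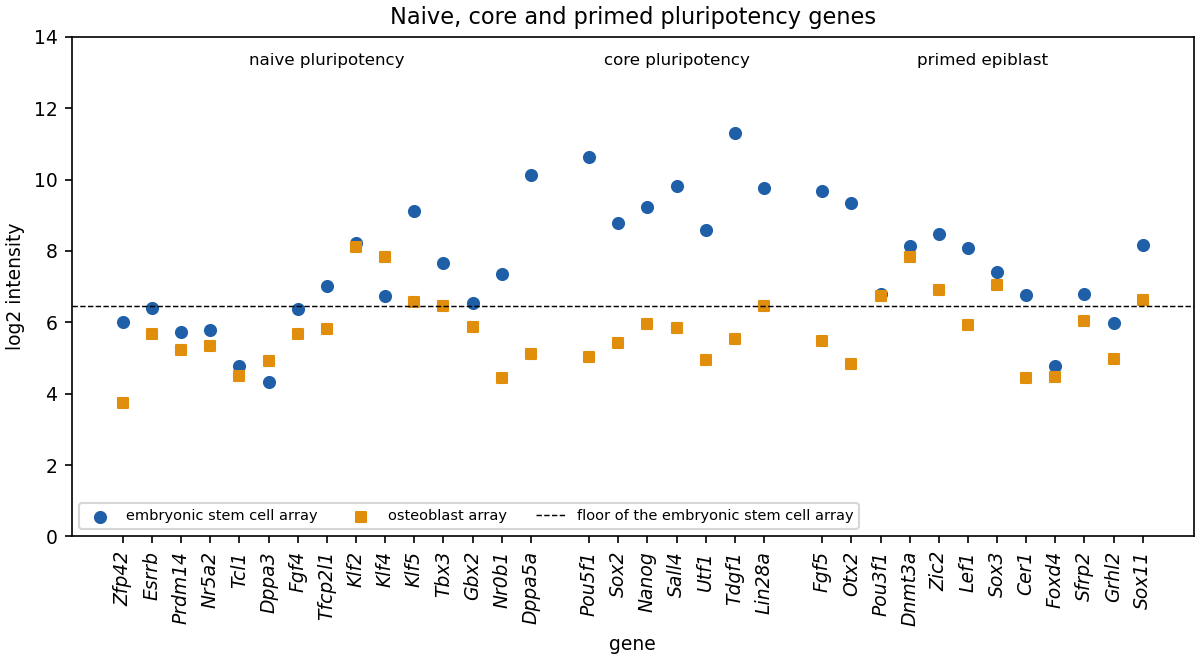
Log2 intensity of 15 naive, 7 core and 12 primed pluripotency genes in the embryonic stem cell array (circles) and the osteoblast array (squares), with the floor of the embryonic stem cell array as a dashed line. The naive and core groups were picked after their values were seen and the primed group is a whole list. In embryonic stem cells the core genes range from 8.59 to 11.29, and the naive genes from 4.34 to 10.14.

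Markers of other early lineages were mixed. In the list of primitive endoderm, the layer that forms the yolk sac, 6 of 11 members above the floor were higher in embryonic stem cells: Gata6 (-2.48), the WNT inhibitor Dkk1 (-1.99), Sox17 (-1.70), Gata4 (-1.49), Foxa2 (-1.31) and Lama1 (-1.20). The endocytic adaptor Dab2 (2.81) and the type IV collagen chains Col4a1 (1.62) and Col4a2 (1.64) of that list were higher in osteoblasts. Sox7 was under the floor, and Afp, Ttr and Apoa1, secreted products of mature visceral endoderm, were under the floor too. Of 16 trophoblast genes 8 were above the floor. Ets2 was higher in osteoblasts (1.01), and Peg10 (10.96 against 6.96), Tfap2c (-3.18) and Cdx2 (-2.19) in embryonic stem cells, while Elf5 and Ascl2, the defining members beside Cdx2, were under the floor. In the germ cell list the receptor Kit (-2.67), Tex19.1 (-1.62), Prdm1 (-1.59) and Dnd1 (-1.53) were higher in embryonic stem cells, and Ddx4 and Dazl were under the floor. The share of the culture that these markers stand for was not tested.

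Epithelial genes formed another block on that side. Of 26 genes of junctions and keratins, 21 were above the floor and 15 were 2-fold or more higher in embryonic stem cells, 0 in osteoblasts, with a median of -1.70. E-cadherin (Cdh1) was at 10.01 in embryonic stem cells against 6.09 in osteoblasts, and the adhesion molecule Epcam at 9.61 against 5.21. The keratins Krt8 (-4.16), Krt18 (-4.49) and Krt19 (-3.43), the splicing factor Esrp1 (-3.47) and desmoplakin Dsp (-3.08) lay together with them. N-cadherin (Cdh2), in contrast, was at 9.59 in embryonic stem cells and 9.70 in osteoblasts, and vimentin (Vim) at 12.75 and 13.11. The genes of the mesenchymal transition were not a mirror image: Snai2 (2.14) and Zeb2 (1.54) were higher in osteoblasts, Snai1 (0.10) and Twist1 (0.26) were within 2-fold, and Twist2 was higher in embryonic stem cells (-2.44).

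Silencing of chromatin showed a narrower set of differences. Of 16 genes, 8 were higher in embryonic stem cells by 2-fold or more and 0 in osteoblasts. Dnmt3b, which sets new DNA methylation, was at 9.89 against 5.49, its partner Dnmt3l at 7.26 against 5.28 and Zfp57, which guards imprints, at 8.88 against 6.15. The maintenance enzyme Dnmt1 (-0.61), Dnmt3a (-0.33), Mbd3 (0.01) and Tet3 (0.11) were within 2-fold.

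The osteoblast culture carried the collagen and matrix programme rather than the genes of mineralisation. Of 27 measured genes of the osteoblast list, 14 were above the floor, 8 were 2-fold or more higher in osteoblasts and 2 in embryonic stem cells, with a median of 0.29. The chains of type I collagen were at 12.60 (Col1a1) and 12.98 (Col1a2) in osteoblasts, at 10.92 and 10.89 in embryonic stem cells, at 9.23 and 12.16 in MSC without bFGF and at 9.06 and 11.66 in MSC with bFGF. Col1a1 was thus highest in osteoblasts but lay far above the floor in all 4 arrays. Cadherin-11 (Cdh11, 1.70), the RANKL decoy receptor Tnfrsf11b (1.68), Postn (1.61), the homeobox factor Dlx5 (1.52) and Sparc (1.38) were the other leading members. Msx2 was at 8.20 against 7.20, at the 2-fold line.

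Genes of mature or mineralising bone cells were low in the osteoblast array. Alpl, the alkaline phosphatase that frees phosphate for mineral and also marks pluripotent cells, was at 6.03 in osteoblasts, 7.64 in embryonic stem cells, 6.32 in MSC without and 5.58 in MSC with bFGF. Sp7 (osterix), the factor that commits osteoblasts, was at 5.36 and 5.65, and Ibsp, bone sialoprotein, at 4.53 and 5.13, under the floor in both. Phex, Ifitm5, Dmp1, Mepe, Sost and Phospho1 were likewise under the floor in both arrays. The bone morphogenetic protein Bmp2 was at 4.09 in osteoblasts and 7.09 in embryonic stem cells. Bglap (osteocalcin) and Spp1 (osteopontin) were not analysed here.

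Transcription factors that mark position along the body were next. Of 28 transcription factors of the skull and cranial neural crest, 20 were above the floor, 10 were 2-fold or more higher in osteoblasts and 2 in embryonic stem cells. Zic1 was at 7.77 in osteoblasts and at 5.41, 5.34 and 4.85 in embryonic stem cells and in MSC without and with bFGF. Alx4, whose loss leaves holes in the skull vault, was at 7.32 and at 5.63, 6.21 and 5.54 in the same order, and Six2 at 8.34 and at 7.04, 6.23 and 5.74. Alx1 (1.20), Foxd1 (1.31), Foxc1 (1.16), Nr2f1 (1.58) and Nr2f2 (1.38) were also higher in osteoblasts, although both Nr2f genes were higher still in MSC without bFGF, at 7.72 and 8.81. Among members within 2-fold were the defining genes Twist1 (0.26) and Msx1 (-0.87). Of 37 Hox genes, which pattern the trunk and limbs, 35 had a lower level in osteoblasts than in embryonic stem cells, but 30 of the 37 were under the floor and the median was -0.44. Hoxd10 (6.83 against 5.37) and Hoxa9 (6.53 against 5.25) were the members above the floor and past 2-fold. Hoxc6 (-1.25) and Hoxa5 (-1.12) were past 2-fold but under the floor. Hoxc10 was at 4.83 in osteoblasts and 7.08 in MSC without bFGF.

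Many matrix genes were higher in osteoblasts. Of 28 collagen chains 12 were 2-fold or more higher in osteoblasts and 0 in embryonic stem cells, with a median of 0.85. Col8a1 (3.67), Col5a2 (2.69) and Col3a1 (2.55) led, and Col6a3 (0.30), Col12a1 (0.92) and Col18a1 (-0.22) were within 2-fold. Of 43 matrix glycoproteins and proteoglycans, 21 were higher in osteoblasts and 0 in embryonic stem cells, with a median of 1.03, and 39 were above the floor in osteoblasts against 29 in the other array. At its upper end, beside Efemp1 (3.30), stood small leucine-rich proteins: Aspn was at 9.37 against 3.82, Fmod at 10.25 against 5.28, Ogn at 7.55 against 3.75 and Prelp at 9.40 against 6.19. Their levels in MSC without bFGF were 3.91, 6.03, 6.29 and 6.12, none of them above the floor there. Others of the same family differed less: decorin (Dcn, 0.64) was at 9.99 and 9.36, Bgn at 12.18 and 11.14 and Lum at 6.87 and 5.35. Omd was under the floor in both arrays. Fibulin 1 (Fbln1) was at 8.19 in osteoblasts and 8.56 in embryonic stem cells, and thrombospondin 1 (Thbs1) at 13.10 and 12.34.

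The enzymes that build and cut the matrix differed in the same direction for the most part. Of 19 collagen-processing enzymes, all above the floor, 11 were higher in osteoblasts, led by lysyl oxidase (Lox, 11.76 against 9.14), the prolyl hydroxylase P4ha3 (2.33) and the lysyl hydroxylase Plod2 (1.57). Pcolce2 was higher in embryonic stem cells (-1.25). The proteases split: Adamts5 (4.95), Mmp2 (2.92), Mmp16 (2.89) and Adamts1 (2.69) were higher in osteoblasts, and the stromelysins Mmp3 (-3.11) and Mmp10 (-2.42) and the gelatinase Mmp9 (-2.95) were higher in embryonic stem cells. Mmp3 stood at 10.15 in embryonic stem cells, 7.03 in osteoblasts, 4.15 in MSC without and 3.85 in MSC with bFGF. Mmp13 (-0.26) and Mmp12 (-0.06) were nearly level between the cultures.

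**Figure D3:**
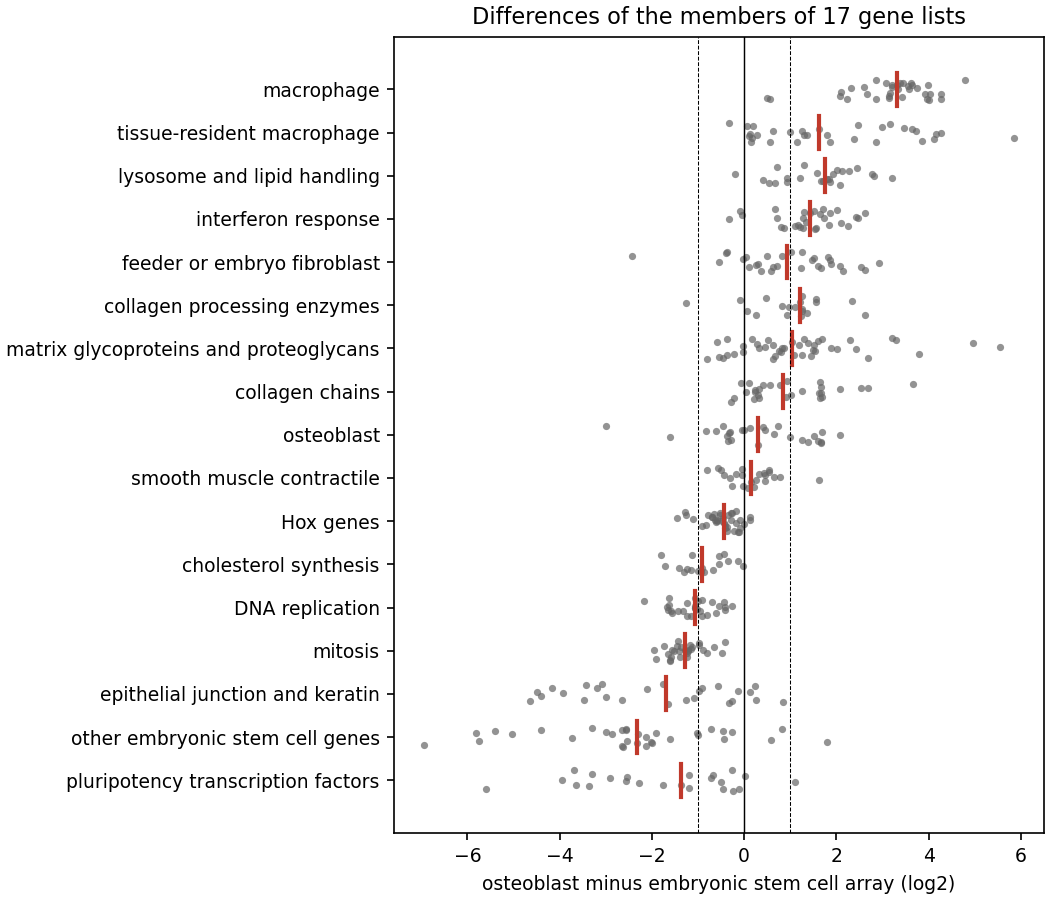
Osteoblast minus embryonic stem cell differences (log2, horizontal) of the members of 17 gene lists, 1 point per gene, with the median of each list as a red bar and dashed lines at 2-fold. The macrophage median of 3.33 lies farthest to the right and the median of -2.31 for other embryonic stem cell genes farthest to the left, while smooth muscle genes (0.15) sit near 0.

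Stromal and contractile genes were present in the embryonic stem cell array itself. Of 30 genes marking fibroblasts, such as those used as feeder cells, 24 were above the floor in embryonic stem cells, 25 in osteoblasts, 20 in MSC without and 21 in MSC with bFGF. Their median level was 8.55 in embryonic stem cells (range 4.43 to 12.75), 9.36 in osteoblasts, 7.95 in MSC without and 7.05 in MSC with bFGF. Of these genes 14 were 2-fold or more higher in osteoblasts and 1 in embryonic stem cells, with a median difference of 0.93. The defining genes were Col1a1, Col1a2 (2.09), Col3a1 (2.55), Pdgfrb (1.86) and Thy1 (0.04). Thy1 was at 8.82 in embryonic stem cells and 8.86 in osteoblasts, but at 6.04 and 5.54 in the MSC arrays. Twist2, a factor of dermal and bone mesenchyme, was at 9.19 in embryonic stem cells, 6.76 in osteoblasts, 7.35 in MSC without and 7.08 in MSC with bFGF. Dpt, Pi16, Meox1, Meox2 and Fap of the same list were under the floor in both arrays.

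Most smooth muscle genes were within 2-fold between the cultures. Of 23 measured, 20 were above the floor, 1 was 2-fold or more higher in osteoblasts (Actg2, 1.64) and 0 in embryonic stem cells, with a median of 0.15. Smooth muscle actin (Acta2) was at 12.68 in osteoblasts and 11.91 in embryonic stem cells, but at 6.46 and 6.58 in MSC without and with bFGF. Transgelin (Tagln) was at 11.37 and 11.05 against 5.96 and 5.52 in the same order, and calponin (Cnn1) at 8.40 and 8.25 against 4.88 and 4.91. For these 3 genes the embryonic stem cell level was within 2-fold of the osteoblast level and above both MSC levels. Myocd, the master factor of smooth muscle, was under the floor in both. The CArG box, which SRF reads in contractile genes, stood in 4 of 20 promoters (20.0%) of the list and in 1.63% of all, searched on both strands in the same window as the motifs above. Of YAP and TGF-beta targets, Ccn1 was at 11.61 and 11.08 and Ccn2 at 12.31 and 11.09 in osteoblasts and embryonic stem cells. What part stromal cells, feeder cells or spreading stem cells had in these levels was not tested.

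Surface proteins of mesenchyme fell between these patterns. Of 25 genes 11 were 2-fold or more higher in osteoblasts and 0 in embryonic stem cells, with a median of 0.91. The collagen receptor Itga11 (3.04), endoglin (Eng, 2.24), Ncam1 (2.18), Alcam (1.89) and Vcam1 (1.88) led. The fibronectin receptor Itga5 was at 9.31 in osteoblasts and 9.91 in embryonic stem cells, Pdgfra at 7.75 and 8.14, and Cd44 at 9.36 and 9.08.

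Macrophage genes had the largest median difference of the 53 lists. Of 34 measured, 33 were above the floor, 32 were 2-fold or more higher in osteoblasts and 0 in embryonic stem cells, with a median of 3.33. The defining genes were Csf1r, the receptor for the macrophage growth factor CSF1, at 11.27 in osteoblasts, 7.30 in embryonic stem cells, 7.31 in MSC without and 10.56 in MSC with bFGF, Cd68 at 11.71, 8.63, 7.92 and 10.66, Itgam at 10.70, 7.38, 6.61 and 9.77, Ptprc at 9.77, 6.02, 6.08 and 9.40, and Adgre1 (F4/80) at 11.16, 9.05, 5.69 and 7.71. Each was highest in osteoblasts. Their lineage factors followed, with Spi1 (PU.1) at 8.99 against 5.79 and Irf8 at 9.07 against 5.92. The antibody receptor chain Fcer1g (4.03), the membrane pore protein Mpeg1 (4.27), the fractalkine receptor Cx3cr1 (4.28) and Ly86 (4.79) had the largest differences, and Lst1 (0.49) and Clec7a (0.57) were within 2-fold. The share of macrophages among the cells was not tested.

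The osteoblast culture carried a resident kind of macrophage profile in part. Of 31 such genes 22 were above the floor and 19 were 2-fold or more higher in osteoblasts. Fcrls was at 11.85 in osteoblasts and at 5.99, 4.86 and 4.87 in embryonic stem cells and in MSC without and with bFGF, and the mannose receptor Mrc1 (CD206) at 10.40 and at 6.76, 4.63 and 4.92. These receptors were low in MSC with bFGF, although Csf1r and Ptprc were not. The complement chains C1qa, C1qb and C1qc (4.26, 4.16 and 4.12), the sialic acid receptor Siglec1 (3.46), Stab1 (3.85) and the selenium carrier Selenop (2.99) were further members past 2-fold. Some members were high in MSC with bFGF too, where C1qa was at 10.09, C1qb at 8.89, C1qc at 9.22, Ccl12 at 8.98 and Hpgds at 8.23. Cd163, Timd4, Lyve1 and Vsig4, further marks of tissue macrophages, were at 4.48, 4.87, 5.62 and 4.35 in osteoblasts, under the floor. Folr2 was at 6.74 against 5.11.

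Lists of related blood lineages held fewer such genes. Of 14 genes of class II antigen presentation 5 were above the floor, 2 were 2-fold or more higher in osteoblasts, the co-stimulatory and maturation genes Cd83 (2.68) and Cd80 (8.59 against 6.77), and 0 the other way. The class II genes H2-Aa, H2-Ab1 and Cd74 were under the floor in both arrays, at 4.33, 5.59 and 5.98 in osteoblasts, while Cd74 was at 8.82 in MSC with bFGF. Of 17 osteoclast genes, 4 were higher in osteoblasts, among them the RANK receptor Tnfrsf11a (1.88) and the protease Ctsk (1.28, 9.33 against 8.04), and 3 in embryonic stem cells. Calcr, Dcstamp, Ocstamp and Atp6v0d2, which mark fused osteoclasts, were under the floor, and Acp5 was at 6.24 in osteoblasts and 6.96 in embryonic stem cells. Of 15 neutrophil genes 14 were under the floor in both arrays, with Lcn2 (-1.85) the exception and S100a8, S100a9 and Mpo among the 14. Of 16 lymphocyte genes 13 were under the floor, including Cd3e and Cd79a, and Il7r (2.42), Blnk (1.76) and Ebf1 (1.03), which other cells also express, were higher in osteoblasts. In the mast cell list Cpa3, Fcer1a and Ms4a2 were under the floor in both.

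The embryonic stem cell array also held some macrophage genes above its floor. Of the 34 macrophage genes 19 were above the floor in embryonic stem cells, 33 in osteoblasts, 18 in MSC without and 29 in MSC with bFGF. The median level over the list was 6.69 in embryonic stem cells (range 4.64 to 11.14), 9.87 in osteoblasts, 6.47 in MSC without and 8.88 in MSC with bFGF. Adgre1 at 9.05 and lysozyme Lyz2 at 11.14 were the leading members, with 13.37 for Lyz2 in osteoblasts, 8.32 in MSC without and 10.71 in MSC with bFGF. Lyz1 and Lyz2 are close copies, so that their values are uncertain. Ctss was at 8.84, Cd68 at 8.63 and Laptm5 at 8.40 in embryonic stem cells, while Ptprc, Spi1, Irf8 and Fcgr1 were at 6.02, 5.79, 5.92 and 5.69, under the floor. Platelet factor Pf4 was at 8.05 in embryonic stem cells and 8.19 in osteoblasts but 5.45 and 5.19 in the MSC arrays, and Ccl7 at 9.29 and 9.39 against 5.78 and 7.01. Mcpt8 (9.48 against 7.90 in osteoblasts) and Ppbp (8.79 against 5.95), genes of basophils and platelets, were higher in embryonic stem cells. The scavenger receptor Cd36 was at 8.48 in embryonic stem cells, 8.29 in osteoblasts, 3.91 in MSC without and 4.79 in MSC with bFGF. Whether macrophages were among these cells was not tested.

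**Figure D4:**
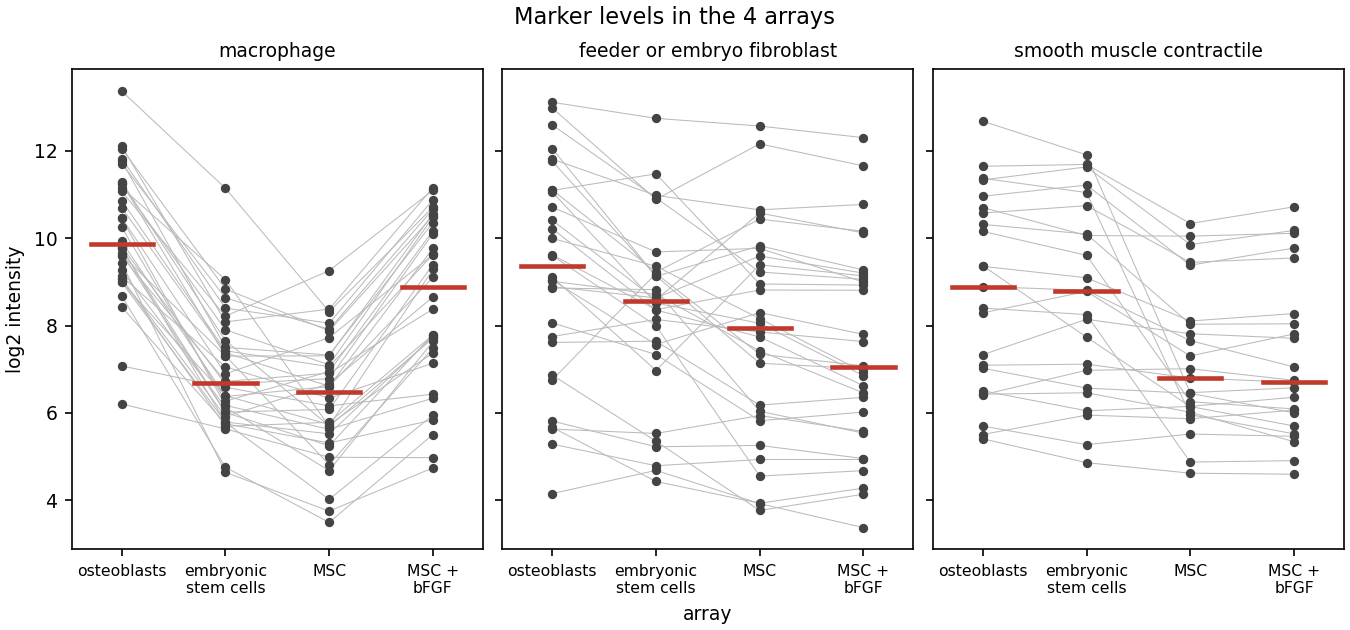
Log2 intensity of the members of 3 marker lists in the 4 arrays, 1 point per gene, with grey lines joining a gene across arrays and red bars at the list medians. Macrophage medians are 9.87 in osteoblasts, 6.69 in embryonic stem cells, 6.47 in MSC and 8.88 in MSC with bFGF; the smooth muscle medians of osteoblasts (8.89) and embryonic stem cells (8.78) lie above those of both MSC arrays.

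In lists of other tissues the measured defining genes were under the floor in both arrays except for cartilage and neural genes, and some further members were above it. Of 20 endothelial genes 6 were above the floor and the VEGF receptor Flt1 (-2.84) and Sox17 (-1.70) were higher in embryonic stem cells, with Cdh5, Pecam1 and Tek under the floor in both. Of 17 genes of fat cells 8 were above the floor. Lpl (2.81) and Cebpb (1.11) were higher in osteoblasts and the desaturase Scd1 (-1.24) in embryonic stem cells, and Adipoq, Pparg and Fabp4 were under the floor in both. Of 18 skeletal muscle genes 6 were above the floor and 1, cardiac actin Actc1 (9.54 against 7.07), was higher in embryonic stem cells, with Myod1, Myog and Pax7 under the floor. Of 9 genes of red cells and megakaryocytes 3 were above the floor, of which Ppbp (-2.84) and the transferrin receptor Tfrc (-1.09) were higher in embryonic stem cells, with Klf1 and Alas2 under the floor. Of 9 pigment cell genes 2 were above the floor and 1, Mitf (1.68), was higher in osteoblasts, with Tyr, Dct and Mlana under the floor. Of 20 cartilage genes 8 were above the floor and 1, Col11a1 (1.68), was higher in osteoblasts, where Sox9 was at 7.99 against 7.24, Col2a1 at 8.23 against 7.45 and Acan under the floor. Of 16 neural genes 7 were above the floor: Stmn2 (-2.87) and Nes (-1.14) were higher in embryonic stem cells, Ncam1 was higher in osteoblasts, and Tubb3 (0.57), Mbp (0.11), Sox1 (0.03) and Sox10 (-0.31) were within 2-fold.

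Genes of the lysosome and of lipid handling were higher in osteoblasts, with 17 of 24 past 2-fold, 0 the other way and a median of 1.76. Ctss (3.22), Lpl (2.81), the acid lipase Lipa (2.44) and Hexa (2.28) led, and Cd36 (-0.19) and Ctsl (0.40) were within 2-fold. Interferon genes followed the same side, with 22 of 27 members above the floor past 2-fold, 0 the other way and a median over 29 genes of 1.43. Rtp4 (2.61), Ifit3 and Ifit1 (both shown above as sequences, at 8.20 and 8.33 in osteoblasts and 5.73 and 5.90 in embryonic stem cells), Bst2 (2.24) and the amplifier Irf7 (2.02) led. Irf1 (-0.34) and Gbp3 (-0.04) differed little. Among innate sensors Tlr7 was at 8.85 against 4.08, Tlr13 at 9.34 against 5.42, Tlr4 at 8.07 against 5.03 and Tlr2 at 9.52 against 6.94, and 14 of 20 genes of that list were higher in osteoblasts. Macrophages express many of these genes too, the macrophage list had a median of 3.33 in the same comparison, and the part of that in these lists was not tested.

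Chemokines and cytokines were higher in osteoblasts more often than the reverse. Of 34 genes 14 were higher in osteoblasts, among them Tnf (2.65), Cxcl16 (2.59), Ccl3 (2.48), Ccl12 (2.47) and Cxcl10 (2.15), and 1, Cxcl5, was higher in embryonic stem cells (-2.27). The macrophage growth factor Csf1 was at 10.12 in osteoblasts, 9.02 in embryonic stem cells, 10.75 in MSC without and 11.14 in MSC with bFGF. Il34, the other ligand of its receptor, was at 7.09 against 5.97.

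The genes that set osteoblasts apart overlapped with those that set MSC with bFGF apart from MSC without it, a pair of arrays not used in the comparison. Of the 1342 genes higher in osteoblasts, 269 (20.0%) were also 2-fold or more higher in MSC with than without bFGF, and these made up 62.7% of the 429 genes so classed. Of the 965 genes higher in embryonic stem cells 27 (2.80%) were in that class, beside 3.52% of all 10927 genes above the floor. Of the 20 largest differences on the osteoblast side, 13 were in it, such as Clec5a (9.77 in osteoblasts, 5.07 in embryonic stem cells, 6.21 in MSC without and 9.77 in MSC with bFGF). The other 7 were not, among them Fcrls, Aspn, Fmod, Adamts5 and Hpgd, which breaks down prostaglandins (10.21 in osteoblasts, 5.56 in MSC without and 5.07 in MSC with bFGF).

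Dividing cells were marked more strongly in embryonic stem cells. Of 29 mitosis genes, all above the floor, 22 were 2-fold or more higher in embryonic stem cells and 0 in osteoblasts, and all 29 differences were below 0, with a median of -1.27. Plk1 was at 10.25 in embryonic stem cells, 8.61 in osteoblasts, 5.32 in MSC without and 6.65 in MSC with bFGF. Cdc20, whose promoter is printed above, was at 8.98 and 7.37, Kif2c at 8.85 and 6.90, Cdk1 at 9.39 and 8.17, and Mki67 at 8.37 and 7.95. For each of these 5 genes the osteoblast level lay between that of embryonic stem cells and those of both MSC arrays, and for Mki67 the difference was within 2-fold. Of 29 genes of DNA replication 17 were higher in embryonic stem cells and 0 in osteoblasts, led by Orc1 (-2.16) and the helicase subunits Mcm7 (-1.67) and Mcm2 (-1.64). Genes acting ahead of S phase were mixed, and most were within 2-fold. Of 16 genes of G1 cyclins and MYC, 5 were 2-fold or more higher in osteoblasts and 2 in embryonic stem cells. Of 19 cyclin-dependent kinase inhibitors and p53 targets above the floor, 4 were higher in osteoblasts and 1 in embryonic stem cells. Cyclin D2 (Ccnd2, 1.55), Ccnd1 (1.23), Rb1 (1.71) and the inhibitor Cdkn2c (2.05) were higher in osteoblasts. Mycn (9.55 against 5.85), Mycl (-1.73) and the inhibitor Cdkn1c (-2.13) were higher in embryonic stem cells, while Myc differed by 0.01.

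Genes of cholesterol synthesis were lower in osteoblasts as a list, and glycolysis differed in single genes. All 18 cholesterol synthesis genes had differences below 0, 7 of them past 2-fold, led by Idi1 (-1.79) and Hmgcs1 (-1.71), with a median of -0.92. Of 24 genes of glycolysis and hypoxia 5 were higher in embryonic stem cells and the median was -0.13. Slc2a3 (GLUT3) was at 11.96 in embryonic stem cells and 6.62 in osteoblasts, whereas Slc2a1 (GLUT1) was at 11.56 and 10.60, and the enzymes Pgk1 (-0.11), Aldoa (-0.06) and Pgam1 (-0.05) were level. The amino acid transporters Slc38a4 (11.20 against 5.78) and Slc7a3 (8.27 against 5.63) were higher in embryonic stem cells.

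In the FGF and the BMP and WNT lists more genes were higher in embryonic stem cells than in osteoblasts. The osteoblast counts there, 2 of 19 and 3 of 29 genes above the floor, lay under the background share of 12.3%. In the IGF axis 6 of 14 genes above the floor were 2-fold or more higher in osteoblasts and 2 in embryonic stem cells. In the LIF pathway 3 of 14 were higher in osteoblasts and 2 in embryonic stem cells. Of the FGF list 7 of 24 were higher in embryonic stem cells and 2 in osteoblasts, the receptor Fgfr2 (8.45 against 6.41) and the stromal ligand Fgf7 (10.53 against 8.95). Fgf10, a ligand of limb and lung mesenchyme, was at 7.87 in embryonic stem cells, 5.19 in osteoblasts and 8.09 in MSC without bFGF, the feedback inhibitor Spry4 at 8.62 and 6.64, and Fgfr1 was level at 9.80 and 9.87. In the list of BMP and WNT genes 9 of 38 were higher in embryonic stem cells, among them Wnt3 (-2.49), the BMP inhibitor Grem1 (11.18 against 8.78), Sfrp1 (-2.09) and the WNT target Axin2 (-2.04), and 3 were higher in osteoblasts: Dkk3 (3.05), Dkk2 (2.27) and Id2 (2.24). In the IGF axis Igf1 was at 10.19 in osteoblasts and 6.82 in embryonic stem cells, Igfbp5 at 9.07 and 6.86 and the protease Pappa at 9.58 and 6.95, while Igf2bp1 (-3.90) and Igfbp3 (-2.75) lay on the other side and Igf2 (-0.31) was level. Of the LIF pathway the receptor chains Il6st (1.81) and Osmr (1.75) were higher in osteoblasts and Socs2 (-3.00) in embryonic stem cells, and Lifr (0.52), Lif (-0.45) and Socs3 (0.72) were within 2-fold.

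The miR-302 cluster, small RNAs that act in pluripotent cells, is shown for its seeds, and it was chosen after its values were seen. The array measured precursor transcripts, not mature miRNA. The mature forms on the 3′ arm are given from RefSeq (GRCm38.p6, chromosome 3, plus strand), 5′ to 3′, with bases 2 to 8 in capitals.
miR-302b-3p: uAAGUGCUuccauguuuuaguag
miR-302d-3p: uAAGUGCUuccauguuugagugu
miR-302c-3p: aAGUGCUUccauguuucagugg
The first 2 share the seed AAGUGCU, and that of miR-302c-3p, AGUGCUU, is offset by 1 base. The precursors Mir302b (-1.83), Mir302c (-2.76), Mir302d (-1.47) and Mir302a (-1.87) were lower in osteoblasts, but their levels in embryonic stem cells, 4.48, 5.57, 4.59 and 4.44, were under the floor, so that none entered the counts.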

How the data were processed

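Total RNA of 4 cultures was measured on 1 Affymetrix whole-transcript array each, of which 2 were compared here; per the labels' protocols 100 ng of RNA was used and 15 µg of cRNA was fragmented. The deposited table holds log2 levels per probe set, made by the authors with Affymetrix Expression Console and RMA, per the submitters' processing notes. The log2 scale was inferred from the values (1.40 to 14.28). No source used here gives software versions or a genome build. RMA makes the distributions of arrays alike, so a shift shared by all transcripts would be hidden, and low levels compress differences.

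Of 35556 probe sets 21789 had a single symbol in the platform annotation, 1621 several and 12146 none. Each gene was represented by the single-symbol probe set whose mean over the arrays was highest, and 999 of 19938 genes had several. Genes were counted at 2-fold where the higher level lay above the floor. No depth or counting interval applies to arrays, and their number, 1 per group, limits the precision; p-values and SDs between cultures cannot be given. The counting step was tested on simulated data with changes set well past the threshold, which checks the counting only and not the error of these arrays.

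The 53 gene lists (1051 of 1127 entries measured), the members named and the comparison were chosen with earlier results of these data known. Named genes were the 20 largest differences each way among genes above the floor. Predicted genes, small RNAs and genes of smell and pheromone receptors, antibodies and T cell receptors were left out. List members could be named too, those with the largest differences first, and defining members whatever their values. The naive and core pluripotency groups and the miR-302 genes were chosen after their values were seen. Symbols, chromosomes, promoters and miRNAs came from RefSeq tables of GRCm38.p6. Alternatives were the mean of probe sets, selection of the probe set on the compared arrays alone, omitting the floor or raising it to the 75th percentile, counting at 1.5-fold or 4-fold, centring on the median, and repeated quantile normalization. Calculations used Python 3.11.15, numpy 2.4.6 and pandas 2.3.3.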

Additional observations from a re-analysis of the deposited data

How the results depend on the processing

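The count of genes higher in osteoblasts (1342) and in embryonic stem cells (965) moved to 893 and 559 with the floor at the 75th percentile, to 2492 and 2147 at a threshold of 1.5-fold and to 370 and 219 at 4-fold. It stayed within 1.5 times with no floor, with the mean of probe sets, with the probe set chosen on the compared arrays alone, with centring and with repeated quantile normalization, where the counts ran from 1283 to 1544 and from 968 to 1124. No list median whose size passed 0.24 changed sign under any alternative. Some smaller medians did change sign when only members above the 75th percentile floor were kept. Primitive endoderm went from -0.14 to 1.62, endothelial from 0.14 to -2.84 and mast cell from 0.15 to -2.12. Of 313 alternative medians over the 53 lists, 264 lay within 0.24 of the value reported. The 49 that moved came from leaving out members under a floor, so that fewer genes entered each median. Because a gene is kept by its higher array alone, these medians cannot check the size of a difference. Of the pluripotency factors kept, 18 were above the floor in embryonic stem cells and 7 in both arrays. With members above the floor only, the median was -2.14 for pluripotency transcription factors, -2.57 for other embryonic stem cell genes, -2.65 for epithelial genes, 1.19 for osteoblast genes and 1.25 for fibroblast genes. With the 75th percentile as floor these were -3.29, -2.81, -3.19, 1.64 and 1.25, and that of collagen chains was 1.64. All 40 alternative chromosome medians stayed within 0.24. No paired analysis was possible because each group had 1 array. Without replicates, the spread between cultures of one kind is unknown, and differences of genes near the floor are bounded by background.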

Other observations

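Imprinted genes, which are expressed from 1 parental copy, divided between the cultures. Of 22 measured, 17 were above the floor, 9 were 2-fold or more higher in embryonic stem cells and 3 in osteoblasts. Besides Slc38a4 and Peg10, the noncoding RNA Meg3 (10.58 against 7.77), Phlda2 (8.28 against 5.47), the membrane protein Nnat, the cell cycle inhibitor Cdkn1c (9.69 against 7.56), Peg3 (9.82 against 7.74) and Mest (10.42 against 8.76) were higher in embryonic stem cells. Sgce (2.00), Plagl1 (1.29) and Igf2r (1.10) were higher in osteoblasts. Peg3, Mest and Ndn were at 5.14, 4.48 and 4.71 in MSC without bFGF, while Ndn was at 10.25 in osteoblasts and 9.53 in embryonic stem cells.

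Genes of the amino acid and integrated stress response leaned to osteoblasts, with 7 of 26 past 2-fold, 2 the other way and a median of 0.57. Atf3 was at 9.55 in osteoblasts, 6.78 in embryonic stem cells, 10.17 in MSC without and 10.66 in MSC with bFGF, Trib3 at 8.38, 6.70, 10.56 and 10.54, and Ddit3 at 8.02, 6.65, 9.73 and 9.82. Osteoblasts lay between embryonic stem cells and both MSC cultures for these 3 genes.

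Xist, which coats the silent X chromosome in female cells, and Y-linked genes were above the floor together in the embryonic stem cell array, with Xist at 7.23, Eif2s3y at 7.97 and Uty at 7.22. In osteoblasts Xist was at 7.88, Eif2s3y at 6.81 and Uty at 6.34, the last under the floor. In MSC without bFGF Xist (5.50), Eif2s3y (3.91) and Uty (3.61) were all under the floor, and in MSC with bFGF Xist was at 8.09 and Eif2s3y at 4.15. Whether cultures held cells of both sexes was not tested. The median difference of genes above the floor on each autosome and on the X chromosome lay between -0.04 (chromosome 12) and 0.13 (chromosome 3), and that of 3 genes of the Y chromosome was -0.89.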
